A study of Danio rerio with 26 samples.

Results

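Accessible sites on zebrafish chromosome 25 were described from the consensus ATAC-seq peaks of the wild-type time course. They comprised every consensus peak listed on that chromosome, and numbered 720 of 25975. The chromosome itself was picked with earlier results of these data known, its dense stretches among them. Its ranks in peak density and unevenness are thus only a description. The 24 other assembled chromosomes, which held 24801 peaks, served for comparison. ATAC-seq uses the Tn5 transposase to cut adapters into open DNA, so a peak marks a site where chromatin was accessible in part of the cells of the embryo. The list joins 17 libraries of untreated wild-type whole embryos of the TLAB line, from which the yolk had been removed. There were 2 libraries each at the 256-cell, sphere, shield and 80% epiboly stages, and 3 each at high, oblong and dome. Tagmented naked genomic DNA from oblong embryos was the background against which peaks were called. The 9 libraries outside the wild-type series (2 each of MZpou5f3, MZsox19b, MZnanog and α-amanitin-injected embryos at 0.2 ng per embryo, all at oblong, and 1 of naked DNA) contributed no peak to the list and were not analysed here.

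Accessible chromatin in the early embryo lies mostly at promoters and enhancers, the regulatory elements that transcription factors bind. Such elements can sit alone or in groups, and they crowd together where genes lie close to one another or where a gene is controlled by several enhancers. During zygotic genome activation the embryo switches from maternal products to its own transcription, and maternal factors such as Pou5f3, Sox19b and Nanog open many of these sites. The list gives only the chromosome, start and end of each peak on Zv10. It carries no height, stage or library, so its values have no replicate error and none of the differences given here was tested. In bulk data a site open in few cells and a site weakly open in all cells cannot be told apart. Peaks were not assigned to genes, because no sequence or annotation of this build was used.

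The 720 peaks covered 256 kb between 37525 and 36877259, which was 0.695% of that span. Their median width was 321 bp, with quartiles of 271 and 401 bp, against 315 bp (263 and 390 bp) on the other chromosomes. The median gap from the end of a peak to the start of the next was 20.9 kb, with quartiles of 3.82 and 64.99 kb. Among the other chromosomes, the median gap ranged from 17.4 kb on chromosome 7 to 26.4 kb on chromosome 12. By these measures of a typical peak, chromosome 25 lay inside the range of the others or at its edge, the median width being the highest together with that of chromosome 2. A further peak lay within 5 kb, from midpoint to midpoint, for 40.1% of its peaks, and the median of the other chromosomes was also 40.1%.

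Density along chromosome 25 was highest in the first 1 Mb bin and in 2 bins near the far end, and lower between them. Full bins of 1 Mb, counted from the start of the chromosome, held 19.4 ± 13.6 peaks (SD, n = 36 bins of 1 chromosome, which are not replicates). This ranked 11 of 25 chromosomes, and the other means ran from 10.7 on chromosome 4 to 22.2 on chromosome 3, with a median of 18.9. The first bin held 61 peaks, and the bins from 34000001 to 35000000 and from 35000001 to 36000000 held 58 each. Of all 1 Mb bins of the 25 chromosomes, 5 held at least 61 peaks and 7 held at least 58. Dense end bins also occurred elsewhere. The first bins of the other chromosomes held from 14 peaks (chromosome 9) to 66 (chromosome 4), with 61 also on chromosome 22. Their last full bins held from 4 (chromosome 4) to 65 (chromosome 7). These 3 bins were the densest of the chromosome, followed by 28 peaks from 2000001, 27 from 14000001 and 26 from 8000001. The terminal stretch, from 36000001 to the last peak, was not a full bin and was not dense, with 21 peaks. The excess near the far end was mostly local, since 34 to 36 Mb held 85 of its 116 peaks in 4 bins of 100 kb. The other 16 bins held 31, or 1.94 per bin. The chromosome as a whole had 1.95 per 100 kb bin with its densest bins included. Without its 100 kb bins of at least 10 peaks it had 16.7 peaks per Mb, so these 16 bins lay somewhat above that level.

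**Figure D1:**
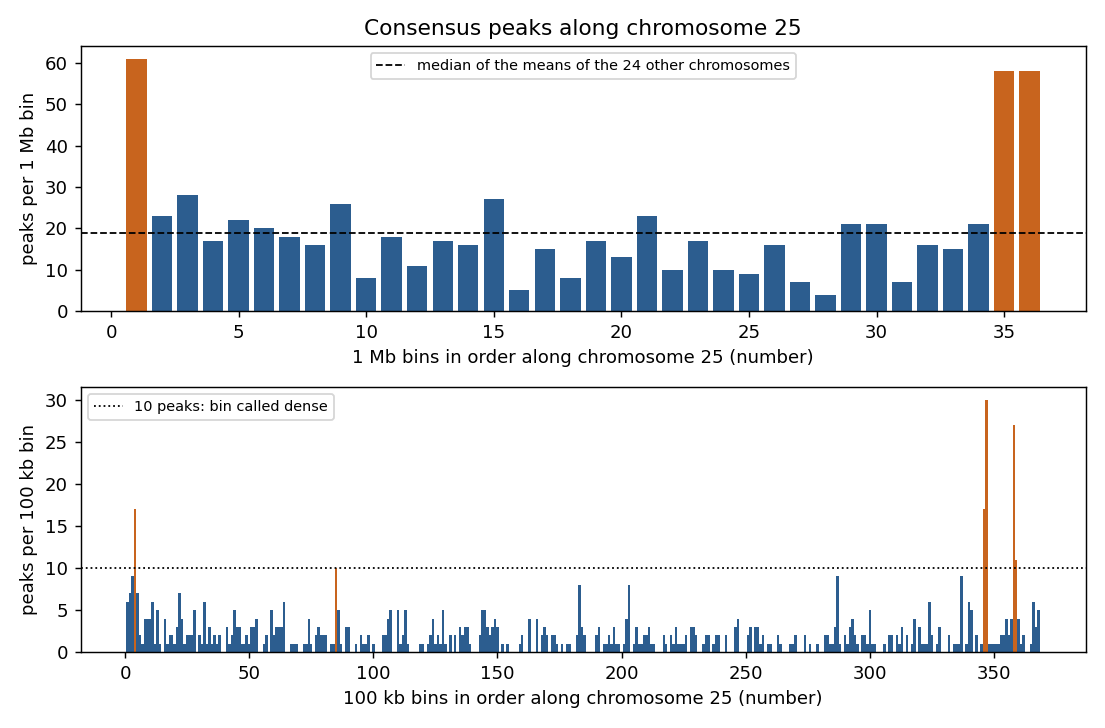
Consensus peaks along chromosome 25 in full bins of 1 Mb (top, orange for the 3 densest bins) and of 100 kb (bottom, orange for bins with at least 10 peaks), with the number of peaks on the vertical axes and the order of the bins on the horizontal axes. The first, the 35th and the 36th 1 Mb bins held 61, 58 and 58 peaks, while the bins between them held 4 to 28, and the dashed line at 18.9 is the median of the mean densities of the 24 other chromosomes.

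Between the first and the last pair of full bins, the 33 inner bins held 15.8 ± 6.41 peaks (SD over bins), with a lowest value of 4, a median of 16 and a highest value of 28. With the first bin and the last 2 full bins left out of every chromosome in the same way, a choice made to suit chromosome 25, its mean ranked 23 of 25. Only chromosome 12, at 15.2, and chromosome 4, at 10.0, were lower, and the other chromosomes had a median of 18.2. This fall in rank was partly built in, since the positions left out were the densest on chromosome 25 but not always dense elsewhere. With 100 kb bins of at least 10 peaks left out of every chromosome instead, its rank was 19. The middle rank of chromosome 25 in overall density thus depended in part on its densest bins. The inner part was also not even. From 1 to 12 Mb the bins held 18.8 ± 5.96 peaks (SD, n = 11 bins). From 12 to 24 Mb they held 14.8 ± 6.21 (n = 12), and from 24 to 34 Mb 13.7 ± 6.48 (n = 10). These differences were smaller than the SD of single bins, which is not the error of a mean, and they were not tested.

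The sparsest bins were scattered through the inner part. The bin from 27000001 held 4 peaks, that from 15000001 held 5, and those from 26000001 and 30000001 held 7 each. The bins from 9000001 and 17000001 shared the next value, 8. The longest interval without a peak, 589 kb from 15308696 to 15897643, lay in the bin with 5 peaks. The next intervals were 517 kb from 11357897 to 11874784, 493 kb from 18499489 to 18992394, 462 kb from 30119914 to 30582019 and 459 kb from 9903247 to 10361942. By its single longest interval chromosome 25 ranked 23 of 25. The longest of the other chromosomes ranged from 546 kb on chromosome 16 to 2477 kb on chromosome 4. Long intervals as a class were about as frequent as elsewhere. Intervals above 200 kb made up 5.84% of its intervals (42) and 5.33% of those elsewhere, and intervals above 400 kb 0.834% (6) and 0.969%.

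At the scale of 100 kb, most of the chromosome resembled the others, and a few bins did not. Of 368 full bins, 108 (29.3%) held no peak, 97 (26.4%) held 1, 128 (34.8%) held 2 to 4 and 29 (7.88%) held 5 to 9. On the other chromosomes the shares were 30.7%, 24.7%, 33.8% and 9.66%. A bin was called dense when it held at least 10 peaks. Chromosome 25 had 6 dense bins, or 1.63% of its bins, against a background of 1.17% over all 25 chromosomes, so dense bins were only slightly more frequent than elsewhere, and its share ranked 5 of 25. What set the chromosome apart was the number of peaks in its 2 densest bins, the kind of result for which it was picked. They held 30 and 27 peaks, while the densest bins of the other chromosomes held between 10 (chromosomes 8, 15 and 17) and 19 (chromosomes 3, 4 and 7). The remaining dense bins of chromosome 25 held 10 to 17, within the range found elsewhere. The variance of the peak number per 100 kb bin, divided by its mean as a measure of unevenness, was 4.44 on chromosome 25, and between 2.01 (chromosome 16) and 3.40 (chromosome 4) on the others. This measure includes the 2 densest bins, which weigh heavily in a variance, so it is not a separate trait. It was not computed without them, and it does not show that peaks were uneven along the whole chromosome.

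**Figure D2:**
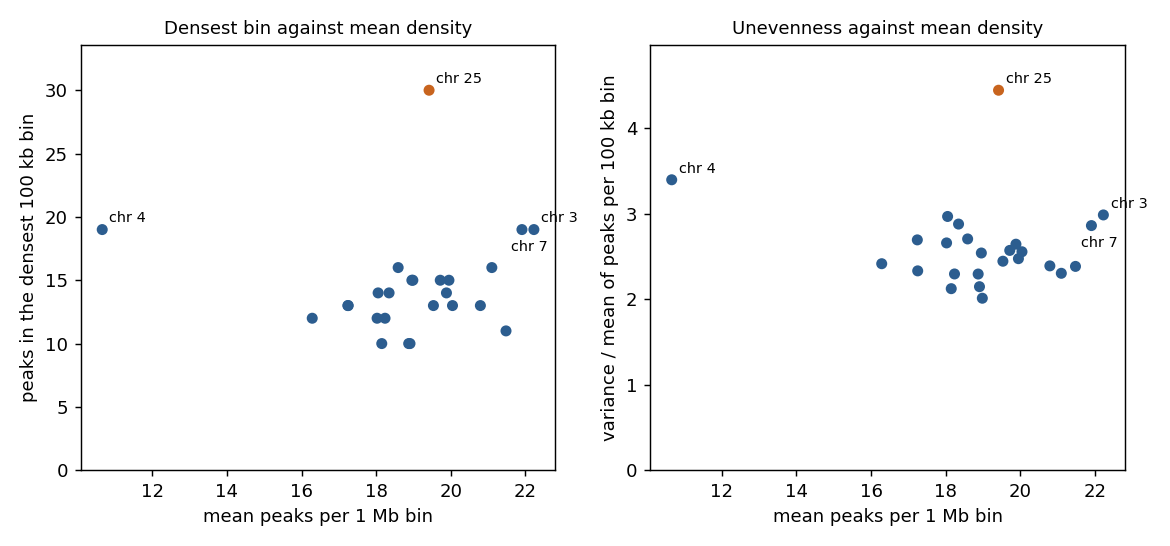
Each point is 1 of the 25 assembled chromosomes, with its mean number of peaks per full 1 Mb bin on the horizontal axis and, on the vertical axes, the number of peaks in its densest 100 kb bin (left) or the variance of peaks per 100 kb bin divided by the mean (right). Chromosome 25 (orange) had an average density of 19.4 peaks per Mb, and the highest values on both vertical axes, 30 peaks and 4.44. The vertical axes are not independent, since the variance includes the densest bin.

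The dense bins lay in 3 places. The first, from 300001 to 400000, held 17 peaks with a median width of 379 bp and belonged to a broad rise at the start of the chromosome, where the first 5 bins held 6, 7, 9, 17 and 7 peaks and the next 5 held 1 to 4. An isolated dense bin from 8400001 to 8500000 held 10 peaks, just enough to be called, and 3 bins fell just short with 9, from 200001, 28600001 and 33600001. The other 4 dense bins formed 2 adjacent pairs near the far end. This division depended on where the bins begin, since with bins shifted by 50 kb the chromosome had 4 dense bins in place of 6. From 34500001 to 34600000 there were 17 peaks and from 34600001 to 34700000 there were 30. From 35700001 to 35800000 there were 27 and from 35800001 to 35900000 there were 11. The first pair, and the near side of the second, had sharp edges. The bin just before the first pair held 1 peak, and the 10 bins between the pairs held 1 to 4 each, 19 in all. On the far side of the second pair the number fell more gradually, from 11 to 4 and then 1. Together the 6 dense bins held 112 peaks (15.6% of the chromosome), of which 85 were in the 2 pairs.

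Peaks in the 2 pairs together were wider than those elsewhere on the chromosome, mostly through the first pair. Their median width was 445 bp, with quartiles of 306 and 575 bp (n = 85 peaks), against 314 bp and quartiles of 265 and 384 bp for the 608 peaks outside the dense bins. Of the 85, 19 (22.4%) were at least 600 bp wide, against 3.13% of those outside. In the dense bins of the other chromosomes the median was 344 bp and 8.38% of 1790 peaks reached 600 bp. The pairs differed from each other. In the first, the median was 510 bp (quartiles 354 and 629 bp) and 15 of 47 peaks reached 600 bp. In the second it was 371 bp (284 and 465 bp) with 4 of 38, close to the median of 368 bp in the dense bins before 30 Mb, where 1 of 27 reached that width. Of the 5 widest peaks of chromosome 25, 4 lay in the pairs. They spanned 34540040 to 34541397 (1358 bp), 34644942 to 34646294 (1353 bp), 35759860 to 35761064 (1205 bp) and 34556732 to 34557651 (920 bp), and the remaining one, of 1017 bp, spanned 179305 to 180321 near the start. Peak number was thus high in both pairs, and peak width mainly in the first.

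Within the 2 pairs, 77 of the 85 peaks fell into 4 runs, each a series with gaps of at most 10 kb and at least 9 peaks. The run definition was set with the values known, and the runs were selected on their peak number, so that number is only a description. The runs held 10.7% of the peaks of the chromosome and 15.1% of the bases they covered. On all 25 chromosomes there were 66 such runs. The runs of 30 and 24 peaks on chromosome 25 were the longest by number, and the longest elsewhere held 19 peaks (chromosome 4, from 28738741 to 28775457). A further run on chromosome 25, of 9 peaks from 33643826 to 33671206, lay before the pairs and had a wider median step of 2575 bp between midpoints.

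The first run spanned 34540040 to 34562854 and held 14 peaks, with a gap of 24.8 kb before it and of 34.7 kb after it. It was composed of wide peaks. In order, the widths were 1358, 630, 634, 381, 666, 208, 840, 611, 712, 301, 920, 306, 846 and 839 bp. Of these, 10 were at least 600 bp wide, and the narrow ones stood singly between wide ones. Peaks covered 40.6% of the run, a share exceeded among the 66 runs only by 2 on chromosome 7, and the median width of 650 bp ranked 2. The steps from midpoint to midpoint had a median of 1536 bp and ranged from 613 to 2893 bp. Their coefficient of variation, the SD divided by the mean, was 0.39, which ranked 4 of the 66 runs from the lowest, and the median over the 61 runs of other chromosomes was 0.69. Evenness here meant a small spread of the steps and not equal lengths, since no step had a twin of the same length within 25 bp.

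The second run was the longest, with 30 peaks from 34597517 to 34653771, and began 34.7 kb after the first. Peaks covered 26.8% of it and had a median width of 498 bp. They were of more equal width than in the first run, with 5 at 600 bp or more. The first 9 peaks, up to 34609083, followed at steps of 1352, 2765, 1031, 1703, 1111, 872, 966 and 1226 bp. After the widest step of the run, 7038 bp, 5 peaks followed at 1202, 2494, 1459 and 1598 bp. A step of 4578 bp led to the last 16 peaks, at steps of 1258, 1011, 1683, 1288, 2094, 1281, 2427, 1462, 1310, 1686, 2925, 1681, 1675, 1682 and 2979 bp. All but the last of these 16 formed a closed series from 34626846 to 34651059, in which no gap exceeded 2 kb. Of the 29 steps, 19 (65.5%) were between 1 and 2 kb, and the coefficient of variation was 0.66, near the median of the other chromosomes.

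**Figure D3:**
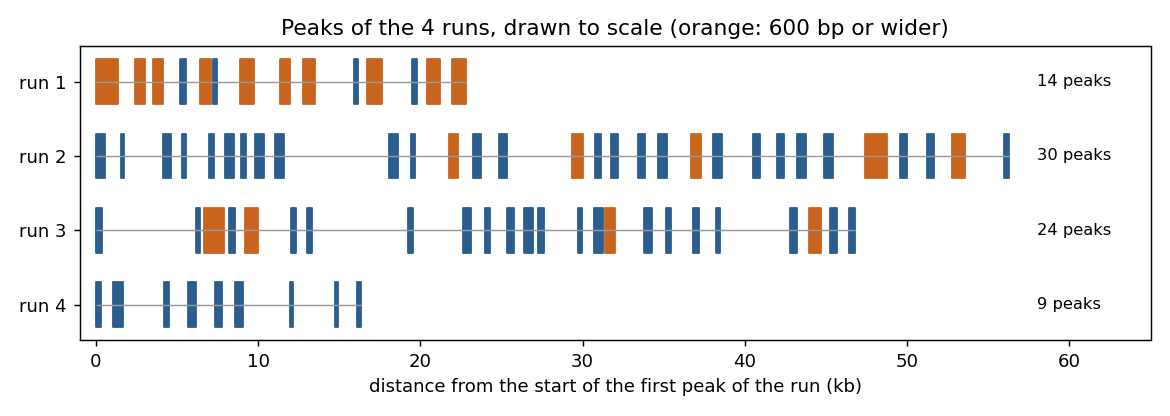
Peaks of the 4 runs near the far end of chromosome 25, drawn as blocks to scale from the start of the first peak of each run (horizontal axis, kb), with peaks of at least 600 bp in orange and narrower ones in blue. The first run consists mostly of wide peaks (10 of 14), and the second, of 30 peaks, shows a closed series toward its end.

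Several step lengths recurred in the second run, where 16 of 29 steps (55.2%) had a twin within 25 bp. The share was 39.1% in the run of 24 peaks. In the runs of other chromosomes it was at most 30.8%, with a median of 0. One length recurred most often. Steps of 1683, 1686, 1681, 1675 and 1682 bp differed by at most 11 bp, and the last 3 of them followed one another, between peaks that began at 34644942, 34647076, 34648746 and 34650253. With steps called equal within 25 bp, the largest set of equal steps was 5 in this run and 3 in the run of 24 peaks (1138 to 1160 bp). In the runs of other chromosomes it was 2 in 18 runs, and in the remaining 43 no step had a twin. Runs with more steps have more chances of a twin, so the share of all pairs of steps that were equal was also computed. It was 4.93% of 406 pairs in the run of 30 peaks and 2.77% of 253 in the run of 24, while the other runs of chromosome 25 had none. Elsewhere it reached at most 3.57%, or 1 of 28 pairs in runs of 9 peaks. This share does not allow for the range of the steps, and steps within a narrow range match more often. Steps from 1 to 2 kb made up 65.5% in the run of 30 and 52.2% in the run of 24, against 21.3% in the runs of other chromosomes. How far this raised the share was not tested.

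The equal steps were less exact when measured from the edges of the peaks. From start to start the same 5 steps measured 1670, 1667, 2134, 1670 and 1507 bp, since the peak of 1353 bp and that of 807 bp were far wider than their neighbours. The 3 steps between peaks of similar width, 422 to 539 bp, kept nearly equal starts. With starts or ends in place of midpoints, the largest set of equal steps was 4 in this run and at most 3 on other chromosomes. Beyond single steps, little of the order recurred. A step of 1031 bp followed by one of 1703 bp came again as 1011 and 1683 bp. The latter step and the next, 1683 and 1288 bp, came again in reverse order as 1310 and 1686 bp. No pair of steps recurred in the other 3 runs of the pairs. Over all distances up to 20 kb between midpoints of the second run, neighbours or not, 0.316% of pairs were equal within 25 bp, which ranked 19 of 66 runs, and the median elsewhere was 0.215%. The recurrence therefore showed in the neighbouring steps and was less marked in the wider pattern.

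The third run, of 24 peaks from 35753177 to 35799985, was the less even of both long runs. Its steps had a median of 1257 bp, but 3 of them, of 6108, 6255 and 4646 bp, set its first peak and later groups apart, and the coefficient of variation was 0.80. Its peaks had a median width of 384 bp and covered 23.6% of it, and 4 of them reached 600 bp. The smallest gap on the chromosome, 96 bp, lay in this run between peaks of 597 and 603 bp. The fourth run followed after a gap of 11.9 kb with 9 peaks from 35811852 to 35828168. Its steps were 1193, 3005, 1540, 1639, 1261, 3261, 2752 and 1391 bp, with a coefficient of variation of 0.42, and its last 3 peaks, of 202, 200 and 200 bp, were at or near the smallest width in the list.

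**Figure D4:**
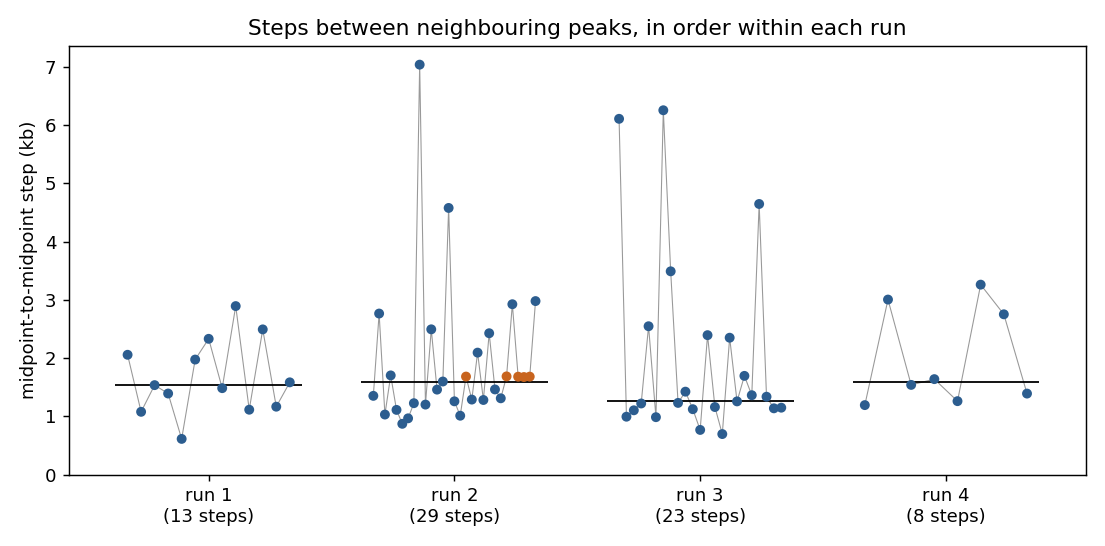
Steps between the midpoints of neighbouring peaks (vertical axis, kb) in their order within each of the 4 runs, with the median of each run as a black line and the 5 steps of 1675 to 1686 bp of the second run in orange. Most steps lie between 1 and 2 kb (44 of 73), and the medians are 1536, 1598, 1257 and 1590 bp.

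Over the 4 runs together, the median step was 1462 bp, with quartiles of 1193 and 2350 bp (n = 73 steps). Steps from 1 to 2 kb made up 60.3% of these, against 21.3% of the 600 steps in the runs of other chromosomes, whose median step was 2501 bp. Runs with short steps also occurred elsewhere, and in 1 run of 9 peaks on chromosome 7, 6 of 8 steps were of this length. Each of these 4 runs of chromosome 25 was among the 5 highest of the 66 in this share. The further run of 9 peaks from 33643826, left out of the 60.3%, had 12.5%. The 4 runs lie in bins picked for many peaks, where short steps are to be found, so the share is only a description. By peaks per 10 kb they were not extreme, with 6.14, 5.33, 5.13 and 5.52 in order along the chromosome, against a median of 3.47 and a highest value of 8.29 elsewhere. The 2 long runs spanned 56.3 and 46.8 kb, and a run on chromosome 13 spanned 57.9 kb at 1.55 peaks per 10 kb. By density and span the 2 long runs of chromosome 25 thus lay within the range of the others. In peak number, the measure on which the runs were selected, they exceeded all others.

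How dense these stretches appeared depended on where a peak ends and the next begins. With neighbours no more than 500 bp apart joined into 1 region, the densest bin kept 29 regions in place of 30, against at most 17 in any bin of the other chromosomes. At a limit of 1000 bp it held 17 and the highest elsewhere held 16. At 2000 bp it held 7, fewer than the 12 from 300001 to 400000 and than the highest bin elsewhere, which held 15. The second densest bin, from 35700001, held 23 regions at 500 bp, 14 at 1000 bp and 9 at 2000 bp. It thus fell below the highest bin elsewhere already at 1000 bp. The prominence of the bin from 34600001 thus rested on gaps of 500 to 2000 bp.

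The locus on chromosome 25 that the study plotted over all stages lay far from these stretches, in a 1 Mb bin of 17 peaks, the median of the chromosome. It contained 5 peaks within 29.4 kb, the first pair at its left edge, from 18210523 to 18211347 and from 18211716 to 18212098. The other 3 were at its right edge, from 18233976 to 18234505, 18236823 to 18237178 and 18239547 to 18239953. The first was 825 bp wide and ranked 11 among the 720 peaks of the chromosome by width. The third, of 530 bp, ranked 64, and the others, of 383, 356 and 407 bp, ranked 214, 269 and 166. All 5 were thus wider than the median peak of the chromosome, which was not tested, since the locus was picked by the study for display.

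Peaks around the locus were mostly narrower than its own. To the left, the nearest peaks lay 15.1, 90.15 and 388 kb from the first peak of the locus, between midpoints, and were 205, 244 and 237 bp wide. To the right, the nearest lay 35.4, 50.8 and 59.8 kb from its last peak and were 212, 258 and 475 bp wide. Within 500 kb on each side of its centre there were 12 other peaks, 4 to the left and 8 to the right, with a median width of 251 bp and a range of 200 to 475 bp. The 5 peaks of the locus, with a median of 407 bp, supplied 42.5% of the bases covered in this 1 Mb. Of the 12 others, 2 were wider than the narrowest peak of the locus, and none was as wide as its 2 widest.

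**Figure D5:**
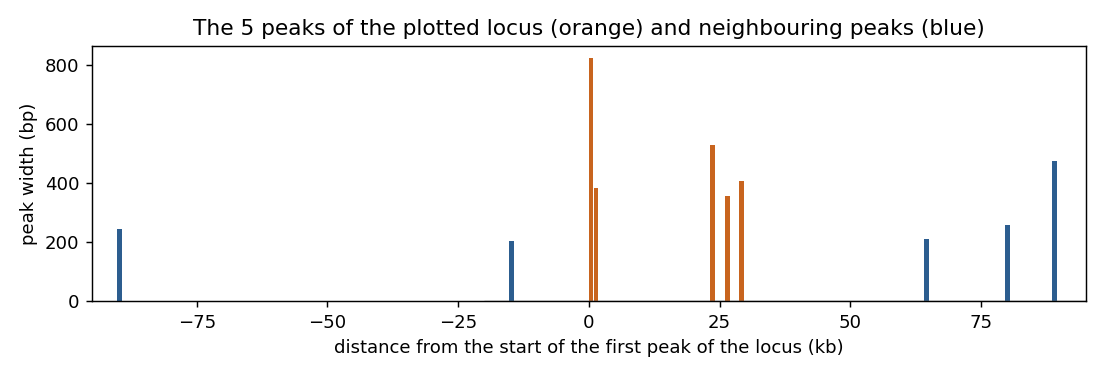
Width in bp (vertical axis) of the 5 peaks of the plotted locus (orange) and of neighbouring peaks (blue), at their distance in kb from the start of the first peak (horizontal axis). Bars are drawn with 1 fixed breadth that does not show peak width, and the locus peaks, of 356 to 825 bp, rise above the neighbours drawn except that of 475 bp.

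The density around the locus fell with the size of the window. The 30 kb plotted held 5 peaks, and 1.23% of the windows of 30 kb on chromosome 25, moved in steps of 1 kb, held as many, against 1.02% over all chromosomes. A window of 100 kb held 6 (median on the chromosome 1), which 5.36% of its windows reached, and 1 of 500 kb held 13 (median 8), which 20.4% reached. In 1 Mb there were 17 peaks, close to the mean of 18.6 and the median of 16, and 46.9% of the windows held at least as many. Density near the locus was thus above that of most windows up to 500 kb and ordinary at 1 Mb. In 2 Mb the locus had 12.5 peaks per Mb, and 81.7% of the windows of chromosome 25 held at least that number. Places with at least 5 peaks in 30 kb also occurred elsewhere on the chromosome. After overlapping windows were joined, chromosome 25 had 15 of them, 4 in its first 500 kb, and the plotted locus was 1 of 3 with exactly 5 peaks outside that region. At 4.07 per 10 Mb, they were fewer than on most chromosomes (rank 23 of 25, median of the others 5.46).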

How the data were processed

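ATAC-seq was measured in 26 libraries of zebrafish embryos, 17 of them wild-type at 7 stages. Per the labels and the methods of the study, the authors trimmed reads with cutadapt 1.9.1, aligned them to Zv10 with Bowtie2 2.2.4, kept short, nucleosome-free fragments with ends shifted for Tn5, and called peaks with MACS2 2.1.1 on pooled replicates of each stage against tagmented naked DNA. Peaks found in every replicate were kept, and overlapping peaks of the wild-type stages were merged, so a site wide in the list can combine peaks of several stages. The deposited list holds only peak bounds in base pairs, with no count, signal or score, so depth per library is unknown and no interval was computed.

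Starts were read as 0-based, as in BED files, and are printed 1-based. If the list counts from 1, each true start is 1 base lower and each width 1 bp larger. Peaks were placed by midpoint in full bins of 100 kb and 1 Mb. Steps were called equal within 25 bp. Python 3.11.15, numpy 2.4.6, pandas 2.3.3 and matplotlib 3.10.9 were used, and the functions for runs and steps were tested on simulated data. No statistical test was run, because the list has no samples to test over. Chromosome 25 and the regions described on it were chosen with earlier results of these data known. The regions are every dense bin, the plotted locus with its 3 nearest peaks on each side, the 5 longest intervals, the 5 widest peaks, and the 5 densest and 5 sparsest 1 Mb bins, ties included. The sequence content of peaks was planned but not analysed here, since it needs a genome of this build. Alternatives in bin size, thresholds, merging and the choice of midpoint are given in the closing section.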

Additional observations from a re-analysis of the deposited data

How the results depend on the processing

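Of 44 alternative values, 36 stayed within 1.5 times the reported value. The mean density of chromosome 25 stayed between 15.5 and 19.4 peaks per Mb, but its rank fell from 11 to 19 when dense 100 kb bins were left out of every chromosome. With a threshold of 8 peaks, 11 bins were dense in place of 6 (background 2.94%). With bins shifted by 50 kb, 4 were dense (background 1.11%). Joining peaks with gaps up to 1000 bp left 3 dense bins (background 0.501%), and up to 2000 bp left 1 (0.187%). The median step in the runs near the far end stayed between 1459 and 1619 bp. The coefficient of variation of these steps, 0.65, depended on the gap limit that defines a run. It became 0.48 with gaps up to 5 kb and 1.26 with gaps up to 20 kb, definitions added after seeing the data. In the run of 30 peaks, 16 of 29 steps (55.2%) had a twin within 25 bp and 9 within 10 bp, while the largest set of equal steps stayed between 4 and 6. Within 25 bp the share of steps with a twin reached at most 30.8% in the runs of other chromosomes, with a median of 0. Those runs held at most 19 peaks, which gave them fewer chances of a twin. The largest set in any run of the other chromosomes was 2 with midpoints within 10 or 25 bp. It was 3 with starts or ends in place of midpoints, where the run of 30 peaks had 4, and 3 within 50 bp, where that run had 6. At the plotted locus, density was 60.0 peaks per Mb in 100 kb, 26 in 500 kb and 17 in 1 Mb.

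No paired analysis was possible because the list merges all wild-type libraries and holds no value by library. For the same reason no library was left out, and the share of sites missed at low depth is unknown. Without a genome of the build, base composition, repeats and how well reads map in the dense stretches were not analysed here, and their part in the peak numbers was not tested.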

Other observations

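On a newer assembly, GRCz12, RefSeq lists 841 protein-coding genes for chromosome 25, which ranks 24 of 25 chromosomes. Set against that number, the chromosome had 0.856 peaks per gene and ranked 22. This ratio combines builds, and no peak was assigned to a gene.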
